A study of Homo sapiens with 8 samples.

Results

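The immediate early genes examined here were FOS, FOSB, JUN, JUNB, JUND, EGR1, IER2, ATF3, MYC and KLF6. These 10 genes were picked by name as genes with short-lived mRNAs, with earlier results of these data known. All 10 were found among the 56303 genes of the count table. They were followed in SK-N-BE(2) cells, an established neuroblastoma line, that expressed a non-targeting shRNA (sh-NC) or one directed at METTL14, a subunit of the enzyme that writes N6-methyladenosine (m6A) on mRNA. Each arm had 2 numbered replicates, called cultures here although the labels do not say that they were grown separately, and each gave an input library and an m6A-immunoprecipitated (IP) library, which makes 8 libraries. According to the methods, shRNAs were delivered by lentivirus and cells were selected with puromycin as stable lines. Nor do the labels say whether shMETTL14 replicates 1 and 2 carried the same shRNA, so the p-values measure the spread between these samples only, which may be technical.

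Immediate early genes are switched on within minutes of a stimulus such as serum, growth factors or stress, without new protein synthesis. Signalling through ERK reaches the serum response factor (SRF), which binds the CArG box, and its ETS-family partners, which bind ETS motifs beside it, while CREB and related bZIP factors bind sites with the core TGACG. Their mRNAs are cleared quickly, in many cases through AU-rich elements (AREs) that recruit proteins of the ZFP36 family and the deadenylation machinery. FOS and JUN proteins pair to form the AP-1 transcription factor.

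The sequences below show which of these 2 kinds of site stand close to the start of the members. RefSeq promoters (GRCh38.p14) from 250 bases before to 50 bases after the start were at hand for 9 of the 10 genes, in 10 windows. The letters TGACG, searched on both strands, were found for 7 of these 9 genes (EGR1, FOS, FOSB, IER2, JUN, JUNB and JUND), against 24.6% of all 35116 promoters. A CArG box, searched on both strands, was found for 1 of the 9, EGR1, against 1.29% of all promoters, and the full palindrome TGACGTCA, which contains TGACG on both strands, for JUND only among the members, against 1.85%. Distances are counted from the RefSeq start, which differs from the gene's outer end in the count table, and the JUN match lies inside the JUN exon of that table. Each match is a stretch of letters and not a measured binding site. Sites outside these windows, or with letters other than those searched, were not looked for. A gene without a match here may therefore still have such a site. Capitals mark the match, and each sequence runs 5′ to 3′ along the gene's strand.

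EGR1 CArG box, 105 bases before the start, chr5:138465366-138465391 (+): cggtcctgCCATATTAGGgcttcctg
EGR1 CArG box, 83 bases before the start, chr5:138465388-138465413 (+): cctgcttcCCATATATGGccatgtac
EGR1 TGACG, 135 bases before the start, chr5:138465334-138465358 (+), with the match on the opposite strand: gggggcttcaCGTCActccgggtcc
EGR1 TGACG, 66 bases before the start, chr5:138465403-138465427 (+), with the match on the opposite strand: tggccatgtaCGTCAcgacggaggc
FOS, 64 bases before the start, chr14:75278754-75278778 (+): gttgagcccgTGACGtttacactca
FOSB, 60 bases before the start, chr19:45467926-45467950 (+): aaggggcgggTGACGtaagcagggg
JUNB, 137 bases before the start, chr19:12791339-12791363 (+): ttcctgacagTGACGcgagccgcct
IER2, 140 bases before the start, chr19:13150261-13150285 (+), with the match on the opposite strand: cccccgccccCGTCAcgccaccatc
JUND, 200 bases before the start, chr19:18281805-18281832 (-): gccgcccccaTGACGTCAacccacaagg
JUND, 86 bases before the start, chr19:18281694-18281718 (-), with the match on the opposite strand: aaatgagcgaCGTCAcccgcaccca
JUN, 123 bases before the start, chr1:58784156-58784180 (-): gtctccatggTGACGggcgggcccg

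The libraries held between 32027379 and 47205265 counts, and levels are given as CPM, read counts brought to a common library size with TMM factors. METTL14 itself stood at 49.5 and 48.8 CPM in the sh-NC inputs and at 13.7 and 14.6 CPM in the shMETTL14 inputs, a log2 change of -1.79 (standard error 0.0663, adjusted p = 1.28e-15 by edgeR). Of 8 neuroblast markers, 5 rose in shMETTL14 (HAND2, GATA3, ISL1, DBH and TH) and 0 fell, against 11.7% and 12.3% of all genes. The summed level of the markers was 5557 to 5790 CPM in sh-NC against 5745 to 5831 in shMETTL14. Most of this sum is MYCN, at 4338 CPM in sh-NC and 4293 in shMETTL14 on average. It therefore hardly reflects markers at lower levels, such as TH (34.2 CPM in sh-NC and 69.6 in shMETTL14). Of 5 markers of other cells, ALB was at 0 in all 4 inputs and PECAM1 and PTPRC were below 1 CPM on average. By contrast, EPCAM averaged 5.43 CPM in sh-NC and 5.17 in shMETTL14, and COL1A1 averaged 85.4 CPM in sh-NC and 53.5 in shMETTL14. The summed level of the 5 was 88.6 to 94.7 CPM in sh-NC against 57.6 to 60.9 in shMETTL14. The part these marker shifts have in the results was not tested.

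The first comparison asked how the RNA of the members differed between the arms before the antibody was applied. EGR1, FOS, FOSB, JUN, JUNB, JUND, IER2, ATF3 and KLF6 fell in shMETTL14, and MYC was the 1 member that did not pass the test. In edgeR's quasi-likelihood test over the 4 inputs, 9 of 10 members were thus lower and 0 were higher at an adjusted p-value under 0.05. Over all 22245 genes tested, 12.3% were lower and 11.7% higher. Because the members were chosen with earlier results of these data known, their count beside this share is a description only. The median log2 change was -0.41 over the members and 0.00 over all genes. In these bulk samples, fewer cells that express a gene and less RNA per cell cannot be told apart.

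**Figure D1:**
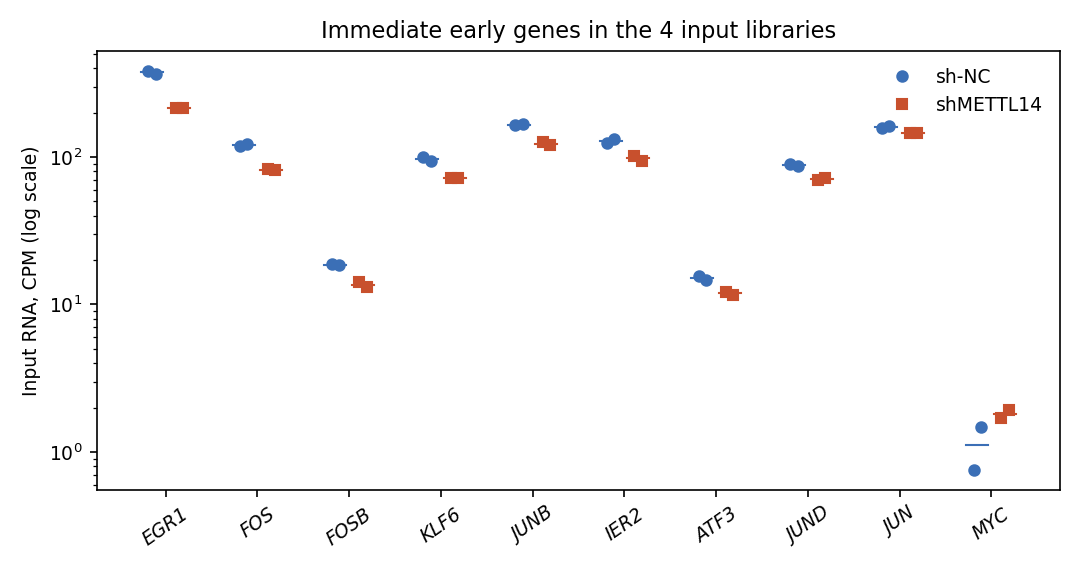
Input RNA of the 10 genes, in CPM on a log axis, with a point for each culture and a line at the mean of the 2 cultures of an arm. For the 9 genes other than MYC both shMETTL14 points lie below both sh-NC points, from 215 against 376 CPM on average for EGR1 to 145 against 159 CPM for JUN.

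EGR1, a zinc finger transcription factor induced through SRF whose promoter carries both CArG boxes shown above, had the largest fall among the members. It stood at 385 and 367 CPM in the sh-NC inputs and at 214 and 216 CPM in the shMETTL14 inputs. The log2 change of EGR1 was -0.80 (standard error 0.0347, adjusted p = 2.57e-14 by edgeR), which leaves 57.4% of the sh-NC level, and leaving out single cultures gave -0.84 to -0.77. EGR1 lies on chromosome 5 from 138465490 to 138469315 (GRCh38) and shares no exon base with another gene of the table.

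The FOS family makes the AP-1 subunits that need a JUN partner. FOS lies on chromosome 14 from 75278774 to 75282230 in 3 exon blocks, and FOSB on chromosome 19 from 45467995 to 45475179 in 3. FOS stood at 118 and 123 CPM in the sh-NC inputs and at 82.9 and 81.5 CPM in the shMETTL14 inputs. Its log2 change was -0.55 (standard error 0.0423, adjusted p = 6.46e-10 by edgeR). FOSB stood at 18.7 and 18.4 CPM in sh-NC and at 14.2 and 13.1 CPM in shMETTL14, with a log2 change of -0.43 (standard error 0.0842, adjusted p = 3.77e-04). The arms did not overlap for either gene, and the call of FOSB was lost without shMETTL14 culture 2 (log2 change -0.38, adjusted p = 0.0686).

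The JUN family, which can pair among themselves or with FOS proteins, fell by log2 values from -0.42 to -0.12. All 3 genes are a single block of exon: JUN on chromosome 1 from 58780788 to 58784327, JUNB on chromosome 19 from 12791496 to 12793315 and JUND on chromosome 19 from 18279760 to 18281622. JUNB stood at 164 and 168 CPM in sh-NC and at 126 and 120 CPM in shMETTL14, a log2 change of -0.42 (standard error 0.0395, adjusted p = 1.47e-08 by edgeR). JUND stood at 90.2 and 86.7 CPM in sh-NC and at 70.3 and 71.6 CPM in shMETTL14, a log2 change of -0.31 (standard error 0.0447, adjusted p = 9.56e-06). JUN had the smallest difference of the 3, with 156 and 162 CPM in sh-NC and 145 and 146 CPM in shMETTL14. Its log2 change of -0.12 (standard error 0.0379, adjusted p = 0.0201) depended on the libraries and the scaling. It ran from -0.15 to -0.10 with a culture left out, and the adjusted p was 0.0966 without sh-NC culture 2, 0.190 without shMETTL14 culture 1 and 0.163 without shMETTL14 culture 2. With scaling factors from the genes least enriched by the antibody in sh-NC it was -0.06 (adjusted p = 0.429). Those factors moved the median input change of all genes from 0.00 to 0.07. Without a filter on low counts the change of JUN was -0.11 (adjusted p = 0.135).

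IER2 lies on chromosome 19 from 13150415 to 13154908, KLF6 on chromosome 10 from 3775996 to 3785281 and ATF3 on chromosome 1 from 212565334 to 212620777. IER2, a nuclear protein of the immediate early response, stood at 125 and 132 CPM in sh-NC and at 101 and 94.4 CPM in shMETTL14. Its log2 change was -0.39 (standard error 0.0442, adjusted p = 3.56e-07 by edgeR). KLF6, a Krüppel-like zinc finger factor, stood at 101 and 94.6 CPM in sh-NC and at 72.1 and 72.6 CPM in shMETTL14, a log2 change of -0.43 (standard error 0.0449, adjusted p = 1.08e-07). ATF3, a stress-induced bZIP factor that can pair with JUN proteins, stood at 15.5 and 14.7 CPM in sh-NC and at 12.2 and 11.6 CPM in shMETTL14. The arms did not overlap for these 3 genes. The log2 change of ATF3 was -0.33 (standard error 0.0903, adjusted p = 0.00811), and its call was lost without sh-NC culture 1 (adjusted p = 0.0774), without shMETTL14 culture 1 (0.0526), without shMETTL14 culture 2 (0.150) and without a filter on low counts (0.0829).

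Exons of 2 members overlap a gene of the opposite strand, and the strand setting of the counting is not given in the sources used here. JUNB shares 259 of its 1820 bases with HOOK2, which had at most 80.2% of the JUNB counts in a library and an input log2 change of -0.18. IER2 shares 946 of its 3072 bases with CTC-250I14.6, which had at most 85.9% of the IER2 counts in a library and an input log2 change of -0.45. If the counting ignored the strand, reads of these partners cannot be told apart from those of JUNB and IER2 over the shared bases. Both values are uncertain to that extent.

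MYC, a bHLH regulator of cell growth, had the lowest level of the members, and its difference was of the opposite sign. The sh-NC inputs held 27 and 53 counts of it, against 72 and 80 for shMETTL14, or 0.755 and 1.47 CPM against 1.70 and 1.91 CPM. The arms did not overlap, but the log2 difference of 0.70 (standard error 0.295) did not pass the correction over all genes (adjusted p = 0.0897 by edgeR, unadjusted p = 0.0259). It ran from 0.30 to 1.26 with a culture left out. It passed without sh-NC culture 2, where it was 1.26 (adjusted p = 0.00695), and with the replicate number as a block, where it was 0.74 (adjusted p = 0.0452). Its relative MYCN stood at 4338 CPM in sh-NC and 4293 CPM in shMETTL14 on average, with a log2 difference of -0.01 (adjusted p = 0.878 by edgeR).

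Per kilobase of exon, the sh-NC input level ran over a wide range among the members. EGR1 was highest at 120 CPM per kb, above 98.7% of the genes tested, followed by JUNB at 91.2, JUND at 47.5, JUN at 44.9, IER2 at 41.9, FOS at 37.3 and KLF6 at 15.9 CPM per kb. ATF3 at 3.74 and FOSB at 3.34 CPM per kb lay near the median gene, which stood at 2.86, and MYC at 0.371 lay above 14.8% of the genes tested. The cultures of neighbours in this order did not overlap in sh-NC, although JUND (48.4 and 46.6 CPM per kb) and JUN (44.2 and 45.6) lay close together. In shMETTL14 the top of the order closed up: EGR1 stood at 68.3 and 68.8 CPM per kb and JUNB at 69.3 and 66.1, which overlap, and JUN (40.8 and 41.3) lay above JUND (37.7 and 38.4).

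The second comparison asked how far the m6A antibody enriched each member, as the ratio of its CPM in the IP to that in the input of the same culture. A ratio above 1 means more enrichment than the average gene, since the scaling sets the middle of all genes close to 1. In sh-NC cells, JUN, EGR1, ATF3, IER2, FOSB, JUND and MYC had higher and JUNB and KLF6 lower IP than input, and FOS did not pass. That is 7 higher and 2 lower of 10 members, where 29.1% of all 22953 genes tested were higher and 29.8% lower. The median log2 IP over input was 0.25 over the members and -0.01 over all genes.

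**Figure D2:**
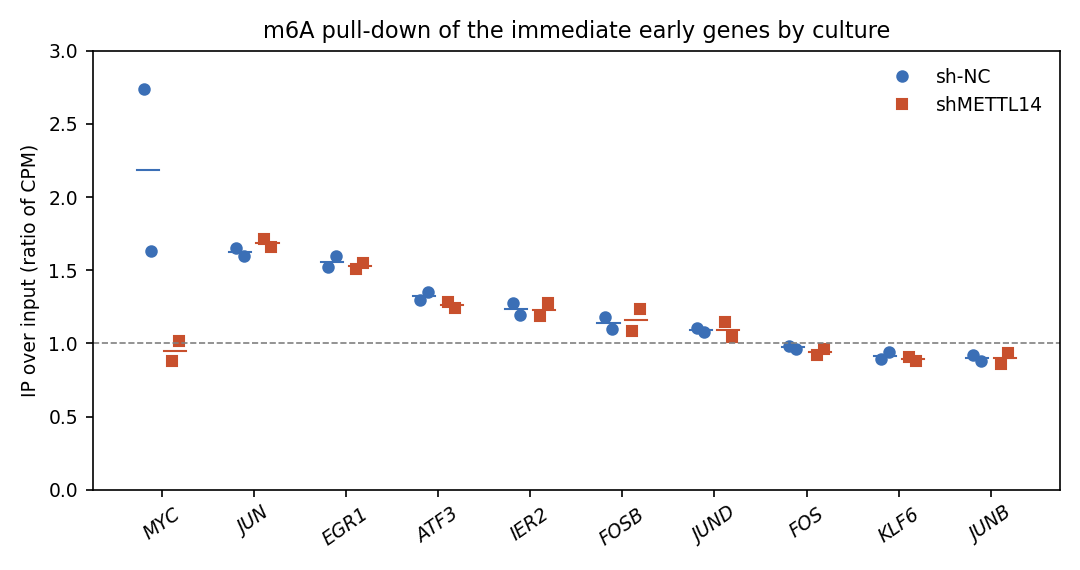
Ratio of IP to input CPM in each culture, with a point for each culture, a line at the mean of the 2 cultures of an arm, and a dashed line at a ratio of 1. JUN and EGR1 lie between 1.51 and 1.71 in all 4 cultures, JUNB and KLF6 lie below 1 in all 4 with the TMM scaling used (and above 1 with factors from the least enriched genes), and MYC has the widest spread, from 2.74 in sh-NC culture 1 to 0.879 in shMETTL14 culture 1.

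JUN, the AP-1 subunit whose RNA fell least, and EGR1, whose RNA fell most, had the highest ratios of the members apart from MYC. The difference between them was not tested. The ratio of JUN was 1.65 and 1.60 in the sh-NC cultures against 1.71 and 1.66 in the shMETTL14 cultures. The ratio of EGR1 was 1.52 and 1.60 in sh-NC against 1.51 and 1.55 in shMETTL14. In log2 terms the sh-NC enrichment was 0.70 for JUN (standard error 0.0389, adjusted p = 1.29e-21 by edgeR) and 0.64 for EGR1 (standard error 0.0367, adjusted p = 4.43e-21).

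Within the JUN family the enrichment therefore ranged from JUN, well above 1, to JUNB, below it. JUNB had ratios of 0.919 and 0.883 in sh-NC against 0.863 and 0.933 in shMETTL14, and JUND had 1.11 and 1.08 in sh-NC against 1.15 and 1.04 in shMETTL14. The sh-NC log2 value was -0.15 for JUNB (adjusted p = 0.00141 by edgeR) and 0.13 for JUND (adjusted p = 0.0173). The differences between these genes were not tested.

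FOS had ratios of 0.986 and 0.962 in sh-NC against 0.924 and 0.963 in shMETTL14, close to the average gene. FOSB had 1.18 and 1.10 in sh-NC against 1.09 and 1.24 in shMETTL14. ATF3 had 1.30 and 1.35 in sh-NC against 1.28 and 1.24 in shMETTL14, and IER2 had 1.28 and 1.20 in sh-NC against 1.19 and 1.27 in shMETTL14. KLF6 was below 1 in each culture, with 0.892 and 0.942 in sh-NC against 0.909 and 0.879 in shMETTL14.

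In shMETTL14 cells, 6 of 10 members (JUN, EGR1, ATF3, IER2, FOSB and JUND) had higher and 2 (JUNB and KLF6) had lower IP than input, where 28.9% of all genes were higher and 29.1% lower. With factors from the genes least enriched by the antibody, which move the median of all genes to 0.92 in sh-NC and 0.80 in shMETTL14 on the log2 scale, FOS, JUNB and KLF6 had log2 IP over input of 0.79 to 0.90 in sh-NC, and of 0.65 to 0.73 in shMETTL14 cells, above 0 but below the median of all genes. FOS passed as lower when libraries were scaled by their size only (log2 -0.17 in sh-NC and -0.20 in shMETTL14), a setting that moves the median of all genes to -0.14 and -0.13. With at least 10 counts required in every library, FOS also passed as lower in shMETTL14 (-0.12, adjusted p = 0.0196), FOSB (adjusted p = 0.0665) and JUND (adjusted p = 0.0647) no longer passed, and 4 members were higher and 3 lower there. The call of FOSB was lost with DESeq2 in both arms (adjusted p = 0.0997 in sh-NC and 0.0812 in shMETTL14). Scaling by library size only, which ended the calls of FOSB and JUND, left 5 members higher in sh-NC and 4 in shMETTL14. Without sh-NC culture 1, 4 members were higher and 1 lower in sh-NC, as FOSB, JUND, MYC and KLF6 no longer passed. Without sh-NC culture 2, 6 members were higher and 1 lower, as FOSB and JUNB no longer passed. In shMETTL14, 5 members were higher and 1 lower without culture 1, as JUND and JUNB no longer passed, and likewise without culture 2, as FOSB and KLF6 no longer passed.

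The third comparison asked whether the enrichment of a member changed between the arms. At an adjusted p-value under 0.05, 0 members were higher and 0 were lower in edgeR's test of the interaction of arm and library type, where 0% of the 22953 genes tested were higher and 0.00436% (1 gene) lower. At an unadjusted p-value under 0.05, 1 member was lower (MYC) and 0 were higher, where 3.31% of all genes were lower and 3.03% higher, and with DESeq2 the adjusted counts were 0 and 0. For the 9 members other than MYC, the log2 change of IP over input lay between -0.07 (ATF3, standard error 0.125) and 0.05 (JUN, standard error 0.0550). For EGR1 it was -0.03 (standard error 0.0524, adjusted p = 0.971) and for FOS -0.05 (standard error 0.0626, adjusted p = 0.956). The scaling removes any loss of m6A that is uniform across mRNAs, which these values therefore cannot show.

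**Figure D3:**
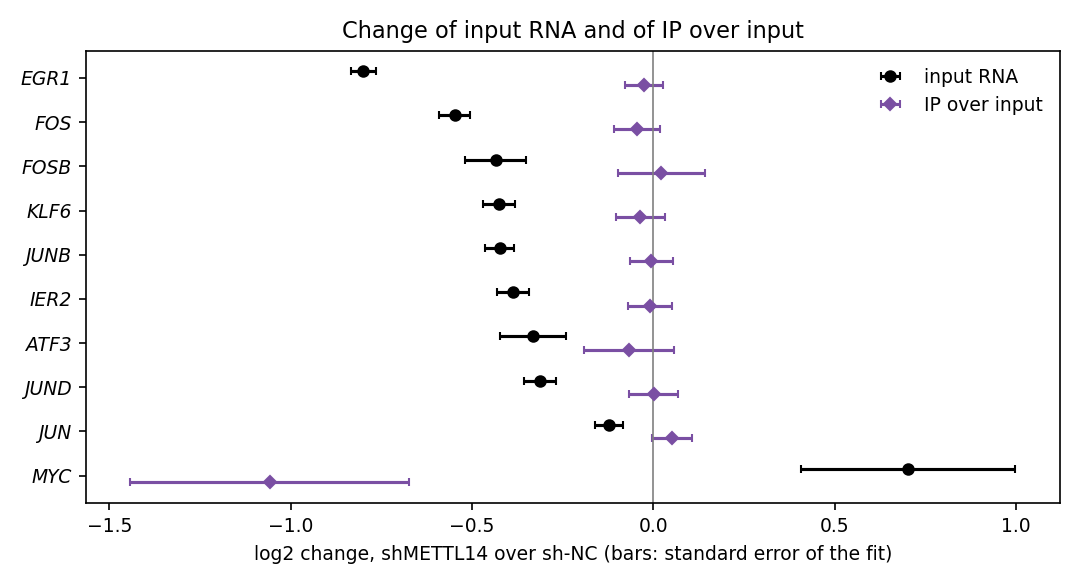
Log2 change between the arms (shMETTL14 over sh-NC) of input RNA and of IP over input for each gene, with standard errors of the edgeR fits as bars. Input RNA lies left of 0 for 9 genes, from -0.80 to -0.12, while their IP over input lies between -0.07 and 0.05. MYC stands apart on both measures, with long bars.

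MYC had ratios of 2.74 and 1.63 in the sh-NC cultures against 0.879 and 1.02 in the shMETTL14 cultures. The arms did not overlap, and the log2 change of the ratio was -1.06 (standard error 0.385, unadjusted p = 0.00836, adjusted p = 0.640 by edgeR). It ran from -1.51 to -0.79 with a culture left out. This ratio rests on 94 and 73 IP counts in sh-NC against 46 and 66 in shMETTL14, over the low input counts given above. The input counts that set its difference in RNA are also the denominator here (all 4 inputs serve both comparisons), so the 2 values of MYC are not independent of each other.

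The IP libraries, taken alone, give the members' levels in the antibody-bound RNA. EGR1 stood at 587 and 586 CPM in the sh-NC IPs and at 324 and 334 CPM in the shMETTL14 IPs, and FOS at 117 and 119 against 76.6 and 78.5 CPM. The IPs of the arms differed by log2 -0.84 for EGR1 (adjusted p = 4.47e-20 by edgeR) and -0.60 for FOS (adjusted p = 6.74e-14). The inputs differed by -0.80 for EGR1 and -0.55 for FOS. Differences between IPs are not divided by the input, so they include the differences in input RNA and are not separate from them. JUNB stood at 151 and 148 CPM in the sh-NC IPs against 109 and 112, and KLF6 at 89.7 and 89.2 against 65.6 and 63.8 CPM. In all, 8 of 10 members were lower and 0 higher in the shMETTL14 IPs, where 12.6% of the 21196 genes tested were lower and 10.4% higher. The other members to fall there were FOSB, JUND, IER2 and ATF3, with log2 differences from -0.42 to -0.32. JUN, at 258 and 259 CPM against 248 and 242, did not pass there (log2 difference -0.08, adjusted p = 0.159), nor did MYC (-0.36, adjusted p = 0.347).

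Genes of the same pathway, in lists also chosen with earlier results of these data known, were then counted in the input comparison. Among 25 other immediate early genes, 24 were tested, of which 11 fell and 2 rose, against 12.3% and 11.7% of all genes. Their median log2 change was -0.25. The largest falls of this list were those of CCN2 and GADD45B. CCN2, which encodes a matricellular protein, had a log2 change of -1.07 (standard error 0.242, adjusted p = 0.00182 by edgeR). This value rests on few reads, with 102 and 99 input counts in sh-NC against 70 and 42 in shMETTL14. GADD45B, a stress sensor, had a log2 change of -0.80 (adjusted p = 2.36e-04). The 2 that rose were FOSL1, a further FOS family subunit (0.51, adjusted p = 0.00532), and NR4A2, an orphan nuclear receptor (0.49, adjusted p = 0.00565). Its paralogs gave no call, with 0.04 for NR4A1 and 0.10 for NR4A3.

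Upstream, of 16 genes that carry signals from RAF and ERK to SRF, 5 fell, 1 rose and 10 did not pass. Of all genes, 12.3% fell and 11.7% rose. The median log2 change of the list was -0.08. BRAF, a kinase at the head of the cascade, fell by 0.49 on the log2 scale (adjusted p = 2.98e-07 by edgeR). ELK1, an ETS-family partner of SRF, rose by 0.28 (adjusted p = 1.23e-04), while SRF had a log2 difference of -0.02 (adjusted p = 0.819).

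Of 14 feedback inhibitors of MAP kinase signalling, not of ERK alone, 5 fell, 2 rose and 7 did not pass. Of all genes, 12.3% fell and 11.7% rose. The median log2 change of the inhibitors was -0.03. SPRY2, an inhibitor of receptor signalling, fell by 0.58 (adjusted p = 7.20e-08 by edgeR) and DUSP16 fell by 0.36 on the log2 scale (adjusted p = 4.00e-06). The phosphatase genes DUSP4 and DUSP8 rose by 0.35 (adjusted p = 7.35e-08) and 0.32 (adjusted p = 0.0324).

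Of 14 genes for ARE-binding proteins and deadenylation factors, 7 fell and 2 rose, against 12.3% and 11.7% of all genes. The other 5 did not pass, and the median log2 change of the list was -0.11. The lowest values were those of ZFP36L1 (-0.63, adjusted p = 2.81e-05 by edgeR) and ZFP36 (-0.53, adjusted p = 5.80e-04), which bind AREs and promote decay and are themselves induced as early genes. ELAVL3 and ELAVL2, neuronal ARE-binding proteins, rose by 0.73 (adjusted p = 3.29e-14) and 0.28 (adjusted p = 0.0146). The list labelled dimer partners holds 17 bZIP factors and genes of the MYC and MAX network, not all of which pair with MYC. Of these, 15 were tested, of which 3 fell (BATF3, MGA and ATF4) and 3 rose (MXD4, MNT and MXI1). The shares of all genes were again 12.3% and 11.7%, and the median of this list was -0.01. For the change of IP over input, 0 of the 84 tested genes of these lists passed edgeR's test, and 9 had an unadjusted p-value under 0.05, as did 6.34% of all genes. In sh-NC IP over input, 9 of the 24 other immediate early genes were higher and 5 lower, 4 of 16 ERK-to-SRF genes were higher and 9 lower, and 9 of 14 feedback inhibitors were higher and 2 lower. Of the ARE factors 3 of 14 were higher and 8 lower, and of the dimer partners 6 of 16 were higher and 4 lower. Over all genes 29.1% were higher and 29.8% lower, and several of these counts lie near that share.

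Over the 8 libraries, the gene whose log2 CPM correlated best with each member, among 16441 genes compared, was SLC25A32 for FOS (Pearson r = 0.996), ETS2 for FOSB (0.993), METAP1D for JUN (0.999), GUCD1 for JUNB (0.995), ELF1 for JUND (0.989), CACYBP for EGR1 (0.998), FAM124A for IER2 (0.995), DNMBP for ATF3 (0.994), NPTX2 for KLF6 (0.995) and DLX3 for MYC (0.953). Each r is a description over libraries that share arm and library type, so that a gene with the same 2 differences will correlate highly with any such member.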

How the data were processed

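The deposited table holds raw counts of reads per gene, which the authors did not normalize. Per the labels, poly(A) RNA was fragmented, 10% was kept as input and the rest was pulled down with an anti-m6A antibody, and a stranded kit with molecular identifiers was used. The submitters' processing notes name Trimmomatic 0.36 and GRCh38; the aligner, the counter and the removal of duplicates are not given in the sources used here. Should duplicates remain in the counts, reads overstate the number of molecules. The deposited gene length was used for levels per kilobase.

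The 10 members and all lists were chosen with earlier results of these data known. After filterByExpr and TMM scaling, all genes were tested with edgeR 4.0.16 (glmQLFit, glmQLFTest; R 4.3.3), at a Benjamini-Hochberg adjusted p-value of 0.05. Input RNA was fitted on the 4 inputs, IP over input and its change on 8 libraries with 4 group means. All 10 members passed the filter in both fits. Standard errors are the absolute log2 change over the square root of F.

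By the protocol, IP and input of a culture come from 1 RNA sample. Deviations of the pair from their group means had a correlation of 0.004 (sh-NC) and 5.7e-05 (shMETTL14) over 22953 genes. Replicates differed by more than the sampling noise of independently counted reads (chi-square per gene from 2.43 to 3.99). The sources used here do not say whether both reads of a pair were counted, which by itself would raise this value. The named genes are the members, METTL14, the cell type markers, and for each list the 2 highest and 2 lowest input changes that passed the test, with per member the best-correlated gene with a mean of at least 50 counts (1 gene that this rule names is not reported here); SRF, NR4A1, NR4A3, HOOK2, CTC-250I14.6, ATF4 and MXI1 were named after their values were seen. Older symbols (CYR61, CTGF, MKL1, MKL2) were matched through RefSeq. The scripts were tested on simulated data. The alternatives were DESeq2 1.42.0, other scalings, other filters, a replicate block, other sets of libraries and leaving out each culture, where the lone culture is assumed to vary like the others.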

Additional observations from a re-analysis of the deposited data

How the results depend on the processing

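In the input comparison, 120 values of members were computed under alternatives: 0 changed direction, 10 no longer passed (JUN, ATF3 and FOSB) and 2 newly passed (MYC). EGR1, FOS, JUNB, JUND, IER2 and KLF6 passed in each of them. With a culture left out, members lower ran from 6 to 8 and members higher from 0 to 1. Across the arms, same-numbered inputs have a number in common and nothing else in the labels, and their deviations correlated by -0.012 over genes. The replicate block gave 1 member higher in the input comparison (MYC), ended the call of FOSB in sh-NC IP over input (adjusted p = 0.0523) and changed no other call. With a culture left out, sh-NC IP over input had 4 to 7 members higher and 1 to 2 lower, and shMETTL14 IP over input had 1 to 2 lower. Factors from the 25% of genes least enriched by the antibody in sh-NC gave 0 members lower and 10 higher in both arms. The sh-NC values that picked these genes also enter the change of IP over input. A shift of that change under these factors is therefore no test of a uniform loss of m6A. The median log2 IP over input of all genes was then 0.92 in sh-NC and 0.80 in shMETTL14. The share of all genes called is not given here, and the 10 calls do not set the members apart under these factors. With them the log2 IP over input turned positive in sh-NC for FOS (0.898), JUNB (0.787) and KLF6 (0.811) and in shMETTL14 for FOS (0.730), JUNB (0.658), MYC (0.747) and KLF6 (0.653), and its change turned negative for FOSB (-0.0998), JUN (-0.0727) and JUND (-0.121), where that of all genes was -0.12 at the median. The IP libraries alone, which do not divide by the input, gave 8 members lower, with -0.42 for FOSB, -0.0795 for JUN and -0.32 for JUND. The change of JUND, at 0.00 in the fit reported, was -0.0016 with DESeq2, -0.00243 with RLE factors, -0.0111 without a filter and -0.00446 with a minimum of 10 counts in every library, and that of JUNB was 0.00237 with library size only. With a culture left out, the log2 change crossed 0 for FOSB (-0.0721 to 0.112), JUNB (-0.0637 to 0.0481), JUND (-0.0707 to 0.0681), EGR1 (-0.0780 to 0.00422), IER2 (-0.0611 to 0.0401) and KLF6 (-0.0938 to 0.00253), as did shMETTL14 IP over input of MYC (-0.182 to 0.0267); none of these values passed the test. Elsewhere the cause of a lost or gained call was not tested. Depth limits MYC most, with fewer than 100 counts in each library.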
